A study of Mus musculus with 50 samples.

Results

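Mouse thyroid RNA-seq was used to describe 8 genes of cholesterol synthesis and its control: Srebf2, Insig1, Hmgcs1, Idi1, Fdps, Fdft1, Sqle and Lss. They were chosen by name, as the rows of the deposited count table whose Ensembl gene identifiers map to these symbols, and are 8 of the 52636 genes in that table. All 8 were found. The rule used names and no measured value, but the members were chosen with earlier results of these data known. Although the set was proposed as one of synthesis and uptake, none of its members is itself an uptake gene: 6 encode enzymes of the synthesis route and 2 encode its control proteins. Genes of uptake and trafficking are described from a separate list.

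Cells make cholesterol from acetyl-CoA through mevalonate, isoprenoid diphosphates, squalene and lanosterol. The transcription factor encoded by Srebf2, SREBP2, is held in the endoplasmic reticulum together with its escort Scap while sterols are plentiful, in part by the retention protein Insig1. When sterols fall it is carried to the Golgi, cut by the proteases encoded by Mbtps1 and Mbtps2, and raises transcription of the synthesis enzymes and of Insig1 itself. Hmgcs1 makes HMG-CoA, Idi1 isomerises isopentenyl diphosphate, Fdps makes farnesyl diphosphate, Fdft1 joins farnesyl units to squalene, Sqle oxidises squalene and Lss closes the ring to lanosterol. Follicular cells of the thyroid take up thyroglobulin and make thyroid hormone, which itself acts on cholesterol metabolism in liver.

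The study blocked Notch signalling with antibodies in adult male C57BL/6 mice, given as 10 to 12 weeks old in one description and 10 to 14 weeks in another. Every mouse received 1 intraperitoneal antibody dose, and whole thyroids gave total RNA for single-end sequencing. RW is an anti-ragweed isotype control antibody at 40 mg/kg, aJ1aJ2 a pair of antibodies to the ligands Jag1 and Jag2 at 20 mg/kg each, aN1aN2 antibodies to Notch1 and Notch2 at 5 and 10 mg/kg, and aN1aN2aN3 antibodies to Notch1, Notch2 and Notch3 at 5, 10 and 20 mg/kg. There were 10 groups of 5 libraries: RW, aJ1aJ2 and aN1aN2 at 15 hours, the same 3 at 5 days, RW and aJ1aJ2 at 7 days (the first 7-day set), and aJ1aJ2 and aN1aN2aN3 at 7 days (the second 7-day set, which has no RW group). The design text also mentions daily thyroxine and triiodothyronine injections, which the labels assign to none of these groups. Titles number the thyroids within a group, but nothing states that each library is a separate animal, so p-values measure the spread between these libraries, which may be technical.

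Promoter sequence is shown for the gene with the most changes below (Hmgcs1) and for both control genes (Srebf2 and Insig1), because SREBP2 acts through sterol response elements together with the CCAAT-binding factor NF-Y. RefSeq promoters of build GRCm38.p6 were available for 5 members, and the 250 bases before the start site of 3 of them are printed 5′ to 3′ on the plus strand, with every match to TCACNCCA or to CCAAT, on either strand, in capitals. The windows are chr13:119690101-119690350 for Hmgcs1, chr15:82147019-82147268 for Srebf2 and chr5:28071162-28071411 for Insig1.
Hmgcs1: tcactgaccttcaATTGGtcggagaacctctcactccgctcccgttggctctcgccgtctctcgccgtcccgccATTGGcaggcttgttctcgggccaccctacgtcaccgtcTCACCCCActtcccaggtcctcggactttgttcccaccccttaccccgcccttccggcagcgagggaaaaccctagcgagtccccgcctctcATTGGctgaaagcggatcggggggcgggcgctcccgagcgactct
Srebf2: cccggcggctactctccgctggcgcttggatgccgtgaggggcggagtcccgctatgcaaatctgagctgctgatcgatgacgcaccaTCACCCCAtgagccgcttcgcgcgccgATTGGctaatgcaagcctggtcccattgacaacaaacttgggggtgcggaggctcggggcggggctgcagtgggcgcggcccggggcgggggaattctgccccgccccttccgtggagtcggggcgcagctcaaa
Insig1: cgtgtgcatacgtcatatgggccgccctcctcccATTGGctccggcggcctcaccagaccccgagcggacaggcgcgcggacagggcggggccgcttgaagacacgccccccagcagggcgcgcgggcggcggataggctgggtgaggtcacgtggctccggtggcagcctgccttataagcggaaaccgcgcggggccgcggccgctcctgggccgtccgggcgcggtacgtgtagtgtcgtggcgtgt
The longer motif TCACNCCAC, of which TCACNCCA is the beginning, stood in 1 of the 5 member promoters, that of Hmgcs1, with its first base 137 bases before the start (position -137). It stood in 1.24% of 32851 promoter windows of 300 bases. TCACNCCA was found in 2 of the 5, Hmgcs1 (-137) and Srebf2 (-162), against 4.36% of all windows. All 5 held CCAAT, as ATTGG on the printed strand, at -216 in Insig1, at -62 in Lss, at -45 and -14 in Idi1, at -237, -176 and -45 in Hmgcs1 and at -135 in Srebf2, against 37.4% of all windows. A match is a run of letters and not a measured binding site. Promoters of Sqle, Fdps and Fdft1 are not described.

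Libraries held 15.3 to 52.8 M counts (M, 1e6 counts, median 28.3), and values are CPM, counts for each 1e6 of the library's total, scaled by edgeR's trimmed mean method. Thyroglobulin (Tg), the defining follicular product, took 0.450% to 42.4% of counts, and 9 skeletal muscle genes took 0.0388% to 11.7%, with medians of 28.5% and 0.821%. RW replicate 3 at 5 days held both the lowest Tg share and the highest muscle share, so that the 9 muscle genes outweighed Tg in a library labelled thyroid, and values at 5 days are given without it where it matters. In 3 libraries a list of 8 sympathetic neuron genes summed to more than 100 CPM: aJ1aJ2 replicate 3 at 15 hours (1539 CPM), aN1aN2 replicate 2 at 15 hours (638 CPM) and aJ1aJ2 replicate 3 at 5 days (1072 CPM). The other 47 libraries summed to between 1.98 and 28.1 CPM (median 3.65). Dbh, the enzyme that turns dopamine into noradrenaline, stood at 673, 278 and 437 CPM in the 3 libraries, and at a median of 0 and a maximum of 10.4 CPM in the others. In the same order, these 3 libraries had Tg shares of 14.5%, 11.3% and 2.39% and muscle shares of 5.40%, 3.25% and 8.04%. Each thus lay below the Tg median and above the muscle median, besides carrying neuron genes. The list and the 100 CPM limit were chosen after these libraries had been seen, and each result below that rests on them is given with and without them.

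Not all members are counted equally well. Per kilobase of exon, the median over the 50 libraries was 11.7 CPM for Srebf2, 11 for Insig1 and 10.7 for Hmgcs1, against 2.70 for Sqle, 2.41 for Fdft1, 1.82 for Lss, 0.0763 for Idi1 and 0.0658 for Fdps. Idi1 and Fdps were thus near the detection limit, with 394 and 610 counts in all 50 libraries together, whereas the remaining members had 18404 (Fdft1) to 114778 (Srebf2). Fdps and Idi1 share 26.2% and 25.3% of their 50-base exon windows with other genes, 8 and 5 of them respectively, so their low counts are uncertain where reads could be split. Fdps also overlaps Gm43738, a protein-coding gene on the same strand with 1 count, over 26.7% of its exons. Fdft1 shares 26.5% of its windows, matched on either strand, with 2 genes. Fdft1 overlaps Ctsb, a lysosomal protease gene on the opposite strand with 1003847 counts, over 774 exon bases (18.3% of its exons), and whether counting used strand is not stated. Ctsb itself did not pass the edgeR test in any of the 8 comparisons between groups, with log2 fold changes from -0.32 to 0.05. Hmgcs1 shares 11.6% of its windows and overlaps an antisense gene with 2448 counts.

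Across the 10 groups the control proteins and the enzymes did not follow 1 pattern. Srebf2 was highest in aJ1aJ2 at 15 hours (group mean 125 CPM) and lowest in aJ1aJ2 of the second 7-day set (24.2 CPM), and every other group but aN1aN2aN3 had a mean of at least 70.5 CPM. Insig1 ranged from 28.4 CPM in aJ1aJ2 at 5 days to 48.0 CPM in RW at 7 days, and neighbouring groups in that order differ by less than their SDs of 5.05 to 13.2 CPM. Hmgcs1 ran from 23.6 CPM in aN1aN2aN3 to 79.3 CPM in aN1aN2 at 15 hours. The remaining enzymes divided: Fdft1 was highest in the second 7-day set (26.7 CPM in aN1aN2aN3 and 19.0 in aJ1aJ2, against 9.03 to 13.8 elsewhere), whereas Lss was lowest there (10.3 and 10.9 CPM against 17.9 to 23.8). Sqle kept group means between 12.9 and 22.4 CPM. Idi1 group means stayed between 0.149 and 0.575 CPM, and those of Fdps between 0.188 and 0.373 CPM outside the second 7-day set, where they were 2.07 and 0.620 CPM. In bulk tissue, fewer cells of a type and less RNA per cell cannot be told apart. The median coefficient of variation within a group was lowest for Lss (15.6%) and highest for Idi1 (47.9%).

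**Figure D1:**
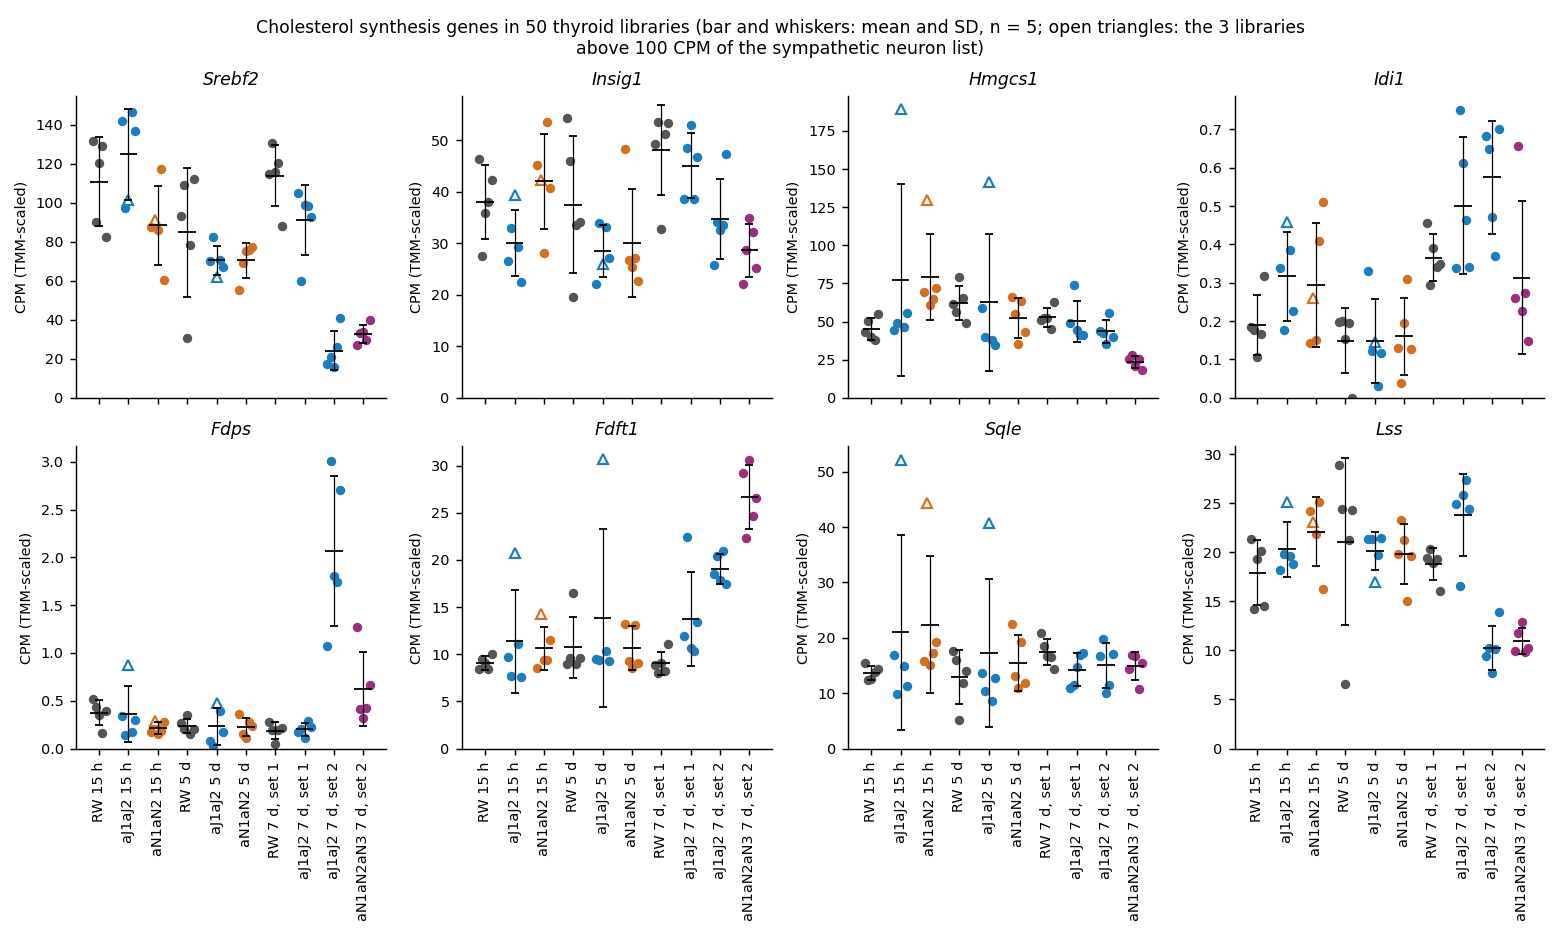
CPM of the 8 members (vertical axes, 1 panel per gene, starting at 0) in each of the 50 libraries, by group along the horizontal axis, with the mean and SD of each group (n = 5). The open triangles, which are the 3 libraries above 100 CPM of the sympathetic neuron list, stand above their groups for Hmgcs1, Sqle and Fdft1, by the least for Fdft1 in aN1aN2 at 15 hours, and the 2 groups of the second 7-day set are low for Srebf2 and Lss.

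Hmgcs1, Sqle and Fdft1 stood above their own groups in the 3 libraries that carried sympathetic neuron genes. Hmgcs1 was at 189 CPM in aJ1aJ2 replicate 3 at 15 hours, 141 CPM in aJ1aJ2 replicate 3 at 5 days and 129 CPM in aN1aN2 replicate 2 at 15 hours, against 18.5 to 79.2 CPM in the other 47 libraries. Sqle was at 52.1, 40.8 and 44.3 CPM in the same 3 libraries, against 5.23 to 22.5 CPM in the others. For both genes the 3 libraries stood above every other library. Fdft1 was at 20.8, 30.7 and 14.3 CPM, each the highest value of its library's group. The values 20.8 and 14.3 CPM lay inside the range of the other 47 libraries (7.54 to 30.6 CPM), and 30.7 CPM lay just above it. The second 7-day set was also high. Over the median of the 4 other libraries of the group, in the order just given, the ratios were 3.98, 3.62 and 1.93 for Hmgcs1, 3.99, 3.54 and 2.67 for Sqle and 2.39, 3.25 and 1.51 for Fdft1.

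Insig1, Lss and Srebf2 were not raised in all 3 libraries. Insig1 had ratios of 1.41, 0.86 and 0.99, Lss of 1.31, 0.79 and 1.00, and Srebf2 of 0.73, 0.88 and 1.05. Insig1 and Lss were thus the highest of their group in aJ1aJ2 replicate 3 at 15 hours, and in neither of the other two libraries. Srebf2, the gene of the transcription factor itself, was below the median of the other libraries in 2 of the 3. The library aJ1aJ2 replicate 3 at 15 hours was the highest of its group for 7 of the 8 members, and each of the other two for 4 of 8. Among all 21546 genes that passed the count filter, the same libraries were the highest of their group for 35.1%, 19.1% (aN1aN2 replicate 2) and 36.6% (aJ1aJ2 replicate 3 at 5 days).

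**Figure D2:**
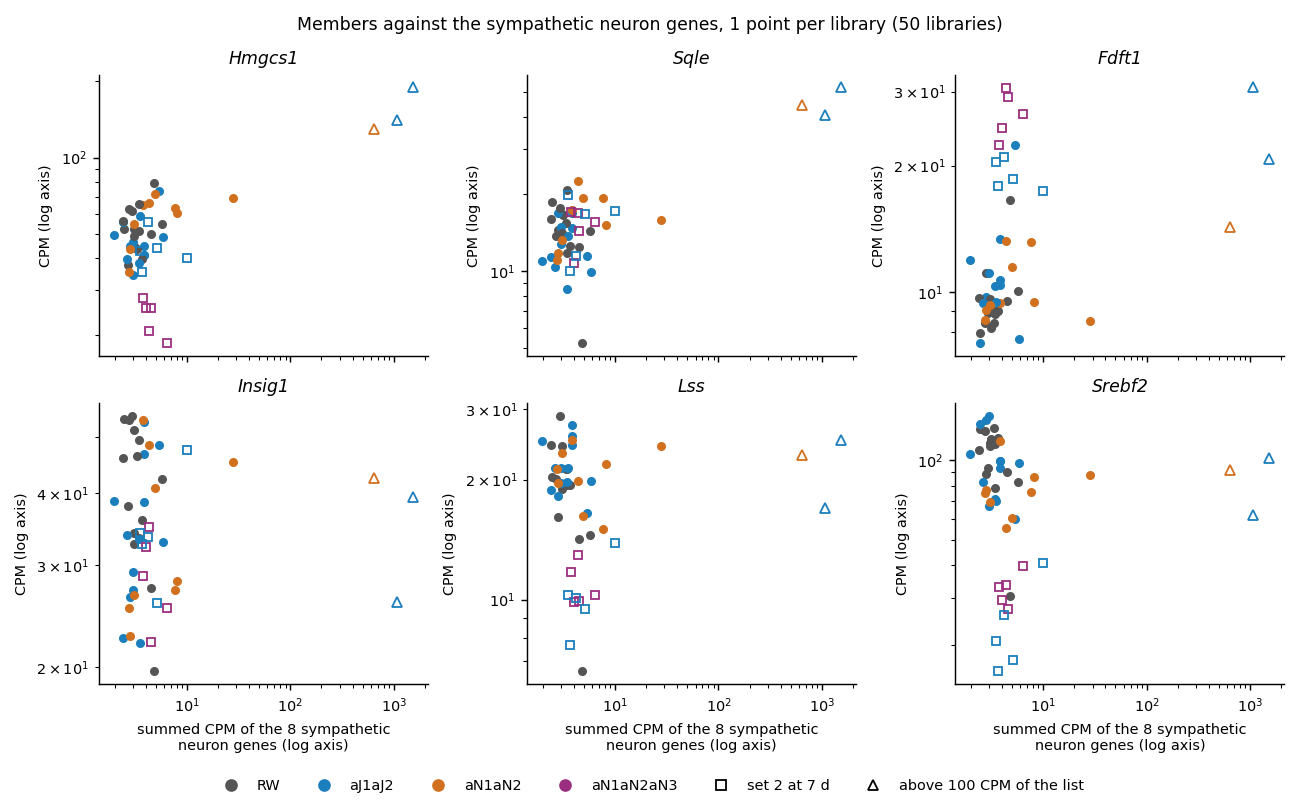
CPM of 6 members (vertical log axes) against the summed CPM of the 8 sympathetic neuron genes (horizontal log axes), 1 point per library. The 3 triangles at the right are the highest values of Hmgcs1 and Sqle, while for Insig1, Lss and Srebf2 they lie within the spread of the remaining libraries.

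The elevation reached along most of the synthesis route. Of 21 synthesis genes, the 6 enzyme members and 15 further genes of the list, 17 (81%) were the highest of their group in aJ1aJ2 replicate 3 at 15 hours, 12 (57.1%) in aN1aN2 replicate 2 and 17 (81%) in aJ1aJ2 replicate 3 at 5 days. The list's median ratios were 2.04, 1.44 and 1.87, beside 1.01, 0.969 and 0.985 for all genes. Among genes that are not members, Dhcr7, which makes the last reduction to cholesterol, had ratios of 4.39, 2.49 and 3.20 in the same order, and Hsd17b7 of 4.87, 2.33 and 3.62. In the uptake and trafficking list the sterol carrier Stard4 stood 5.19, 2.42 and 3.23 times over the median. The lysosomal cholesterol carrier Npc2 went the other way, with ratios of 0.51, 0.50 and 0.24. Of 12 fatty acid synthesis genes, 7, 0 and 3 were the highest of their group in the same order of libraries, with median ratios of 1.17, 0.826 and 0.762. These genes were named after their values had been seen, and the part of nerve tissue in these values was not tested beyond the fits without the libraries. The same libraries were also low in Tg and rich in muscle genes, and the part of those tissues in these ratios was not tested.

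**Figure D3:**
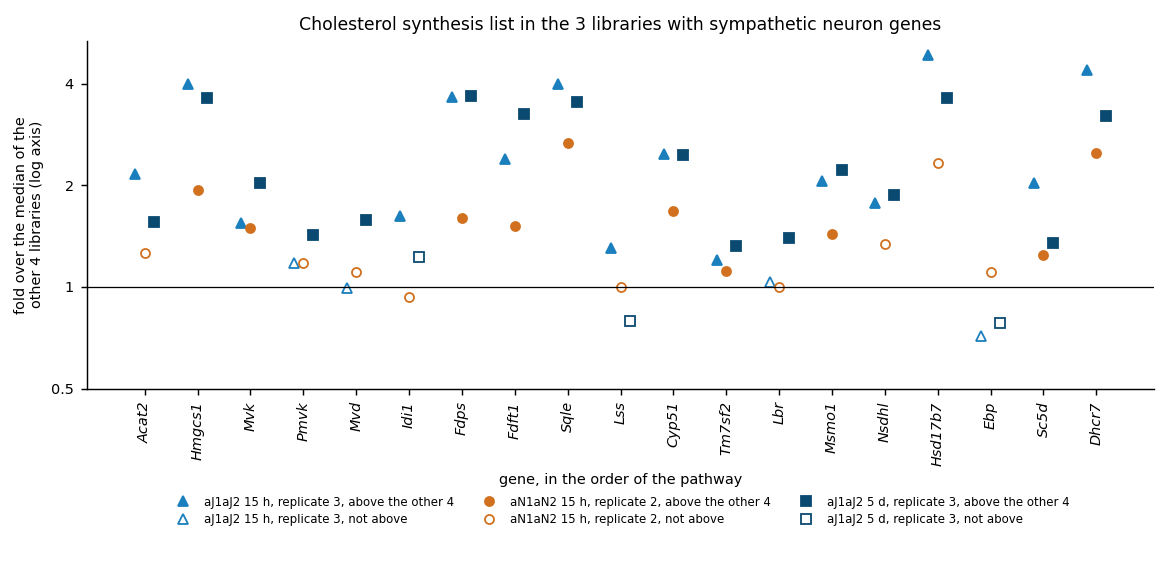
Ratio of each of 3 libraries to the median of the other 4 libraries of its group (vertical log axis) for 19 of the synthesis genes in pathway order. Filled symbols mark genes for which the library is the highest of its group, and most filled symbols lie between 1 and 4.

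At 15 hours, no member changed in aJ1aJ2 against RW, and the elevated means of Hmgcs1 and Sqle rested on 1 library. Hmgcs1 was at 44.7, 48.7, 189, 46.5 and 55.7 CPM in aJ1aJ2 and at 43.5, 50.2, 39.8, 37.6 and 54.8 CPM in RW. The groups overlapped, and aJ1aJ2 replicate 3 stood far above all other values. Its log2 fold change was 0.77 (SE 0.38, edgeR adjusted p = 0.794), and 0.16 (adjusted p = 0.699) without the 3 libraries with neuron genes. Sqle was at 16.9, 9.93, 52.1, 14.8 and 11.3 CPM against 15.4, 12.4, 12.5, 13.8 and 14.3, with a log2 fold change of 0.62 (SE 0.43, edgeR adjusted p = 0.966) that became -0.01 (adjusted p = 0.993) without those libraries. Fdft1 went from 0.32 (adjusted p = 0.986) to 0.03 (adjusted p = 0.958) in the same way. Of the 8 members tested, 0 were called at an edgeR adjusted p under 0.05, beside 0.573% of 18513 genes, and 0 were called by DESeq2. An unadjusted p under 0.05 was reached by 0 members, beside 6.59% of genes.

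Neither control gene passed in the same comparison. Insig1 was at 26.5, 32.9, 39.4, 29.2 and 22.5 CPM in aJ1aJ2 and at 46.4, 27.4, 36.0, 37.9 and 42.3 CPM in RW, with 4 of 5 values below the RW mean and overlapping groups (log2 fold change -0.34, SE 0.19, edgeR adjusted p = 0.869). Srebf2 had group means of 125 ± 23.5 and 111 ± 22.8 CPM (SD, n = 5 each) and a log2 fold change of 0.17. Lss was at 0.18, Idi1 at 0.71 and Fdps at -0.06 on the log2 scale, all with overlapping groups. No gene of the 6 other lists passed the test either, and without the 3 libraries the number called was also 0 in every list. The synthesis list of 15 further genes had a median log2 fold change of 0.29 beside -0.03 for all genes, with the sterol oxidase Msmo1 at 0.53 (adjusted p = 0.772) and Acat2, the first enzyme of the route, at 0.43 (adjusted p = 0.786). Among the 7 liver X receptor (LXR) targets and efflux genes, Scd2 was at 0.47 (adjusted p = 0.635) and the sterol exporter Abcg1 at 0.49 (adjusted p = 0.666). The genes nearest the threshold in the remaining lists were Mbtps1 (-0.05) and Mbtps2 (-0.07) of SREBP control, Stard4 (0.62) and the lipoprotein receptor Scarb1 (0.17) of uptake, Nus1 (0.17) and Ggps1 (0.11) of the isoprenoid branches and the elongases Elovl5 (0.22) and Elovl6 (0.55) of fatty acid synthesis, with edgeR adjusted p of 0.786 to 1.00.

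Hmgcs1 was the member with the clearest separation in aN1aN2 against RW at 15 hours. It was at 69.1, 129, 60.6, 65.0 and 72.2 CPM in aN1aN2 and at 43.5, 50.2, 39.8, 37.6 and 54.8 CPM in RW. Every aN1aN2 library lay above every RW library. The means were 79.3 ± 28.4 and 45.2 ± 7.18 CPM (SD, n = 5 each), a log2 fold change of 0.81 (SE 0.38, edgeR adjusted p = 0.356), which did not pass the test. Without the 3 libraries with neuron genes the mean of aN1aN2 was 66.7 ± 5.01 CPM (n = 4), the log2 fold change 0.58 and the edgeR adjusted p 0.0240. Thus 1 of 8 members was called as higher, beside 1.4% of 18557 genes in that fit. Besides aN1aN2 replicate 2, that fit left out aJ1aJ2 replicate 3, which is in neither group compared but shares the estimate of spread. With all libraries 0 of 8 members were called by edgeR, beside 1.68% of 18513 genes, and 0 by DESeq2, and 0 members had an unadjusted edgeR p under 0.05, beside 14.4% of genes. Separation of the groups was seen for 1 of 8 members, beside 5.21% of genes. Leaving out 1 library of the compared groups at a time gave edgeR adjusted p between 0.299 and 0.670. These fits include the one without aN1aN2 replicate 2, so removing that library alone gave no call. Adding the adipocyte list as a covariate gave a log2 fold change of 0.24 (adjusted p = 0.954). The aN1aN2 libraries at 15 hours and the RW libraries at 15 hours also fall into different processing blocks of the deposited values, so block and antibody cannot be told apart here.

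The other members did not separate in that comparison. Sqle was at 15.9, 44.3, 15.1, 17.3 and 19.3 CPM in aN1aN2, all above the RW mean of 13.7 CPM but overlapping the RW range of 12.4 to 15.4 (log2 fold change 0.71, SE 0.43, edgeR adjusted p = 0.487), and was at 0.32 (adjusted p = 0.423) without the 3 libraries. Lss had means of 22.1 ± 3.52 and 17.9 ± 3.31 CPM (0.30, adjusted p = 0.382), and Srebf2 of 88.5 ± 20.3 and 111 ± 22.8 CPM (-0.33, adjusted p = 0.460). Fdps was at -0.78 (adjusted p = 0.475), Idi1 at 0.63, Fdft1 at 0.22 and Insig1 at 0.14. In the 6 lists no gene passed. Nearest were Abcg1 at 0.77 (adjusted p = 0.0554) with Scd2 at 0.49 (0.194), and in fatty acid synthesis the lipid droplet protein Pnpla3 at 0.76 (0.0629) with Elovl5 at 0.35 (0.131). Leaving out aN1aN2 replicate 3 or 5 at 15 hours brought 1 LXR list gene under the threshold, and leaving out RW replicate 2 brought 1 fatty acid gene. For those fits the share of all genes called is not given, so these counts have no background beside them. The synthesis list stood at a median of 0.26 beside 0.01 for all genes, with the demethylase Cyp51 at 0.73 (0.234) and Acat2 at 0.50 (0.286). The remaining lists gave Scap at -0.22 and Insig2 at 0.15, Stard4 at 0.60, and Fntb at -0.32 and Nus1 at 0.31, with edgeR adjusted p of 0.206 to 0.786.

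**Figure D4:**
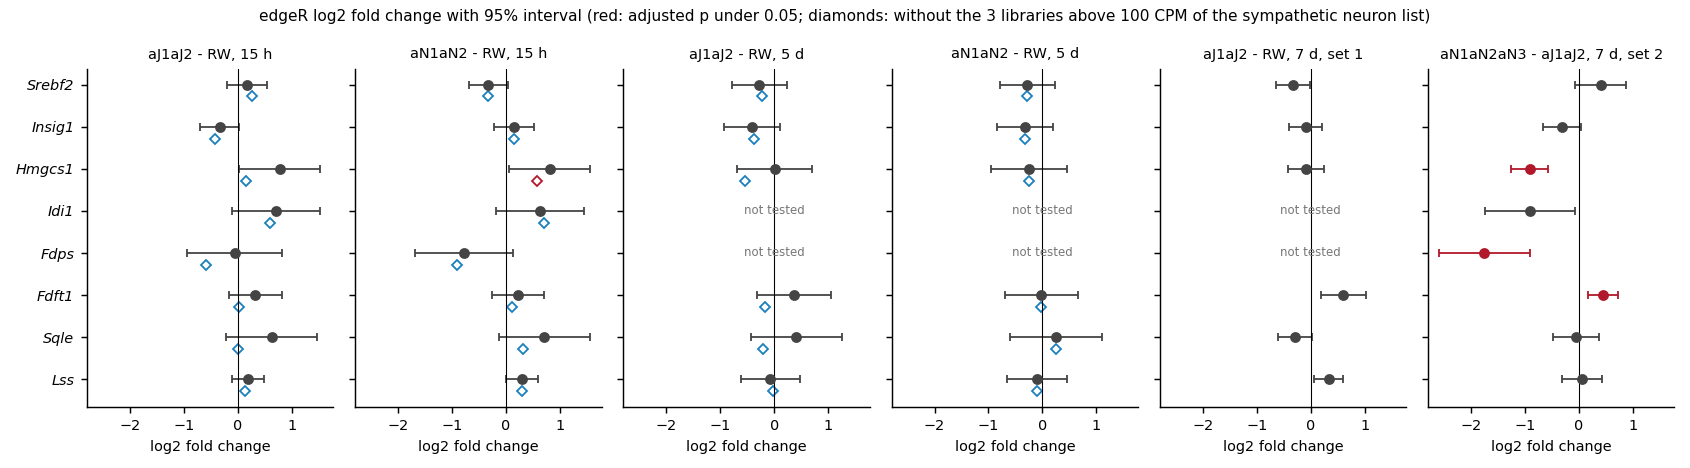
edgeR log2 fold change (horizontal axes) with its 95% interval for each member in 6 comparisons, with members that failed the count filter marked as not tested. Diamonds give the value without the 3 libraries with neuron genes, which lies nearer to 0 than the circle for Hmgcs1 and Sqle at 15 hours, and red marks an adjusted p under 0.05.

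At 5 days no member changed under either antibody. Hmgcs1 was at 59.1, 39.7, 141, 38.2 and 34.5 CPM in aJ1aJ2, at 66.1, 54.9, 35.3, 63.5 and 43.4 CPM in aN1aN2 and at 61.4, 56.0, 79.2, 65.3 and 49.2 CPM in RW. Apart from aJ1aJ2 replicate 3, every aJ1aJ2 value lay below the RW mean of 62.2 CPM, and the groups overlapped. The log2 fold changes were 0.01 (SE 0.36, edgeR adjusted p = 0.995) for aJ1aJ2 and -0.25 (SE 0.36, adjusted p = 0.896) for aN1aN2, and the first of these was -0.55 (adjusted p = 0.351) without the libraries with neuron genes. Idi1 and Fdps did not pass the count filter in this fit, Idi1 being at 0 in RW replicate 5. Of the 6 members tested, 0 were called in aJ1aJ2 by edgeR (beside 0.179% of 18434 genes) and 0 in aN1aN2 (beside 0% of 18434 genes, where 1848 genes had an unadjusted p under 0.05), and DESeq2 called 0 members, and 477 and 463 genes in all. For an unadjusted p under 0.05 the counts were 0 of 6 members in both, beside 11.8% and 10% of genes.

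The genes of both control proteins had lower values in the antibody groups at 5 days, and neither passed the test. Srebf2 was at 70.2, 82.4, 61.8, 70.9 and 67.2 CPM in aJ1aJ2, at 55.4, 69.1, 75.1, 75.7 and 77.2 CPM in aN1aN2 and at 93.5, 109, 30.6, 78.5 and 112 CPM in RW. Only RW replicate 3, the library with 11.7% muscle counts, fell below the antibody groups. The log2 fold changes were -0.27 (edgeR adjusted p = 0.690) and -0.28 (adjusted p = 0.846), and without RW replicate 3 they were -0.48 (adjusted p = 0.101) and -0.49 (adjusted p = 0.152). Insig1 was at -0.41 (adjusted p = 0.572) in aJ1aJ2 and -0.33 (adjusted p = 0.821) in aN1aN2, with all 5 aJ1aJ2 values under the RW mean of 37.5 CPM. Lss was at -0.07 and -0.10, and without RW replicate 3 at -0.29 (adjusted p = 0.310) and -0.33 (adjusted p = 0.260). Fdft1 was at 0.37 (adjusted p = 0.692) in aJ1aJ2, where replicate 3 stood at 30.7 CPM and the other 4 libraries at 9.28 to 10.3 CPM, and at -0.02 in aN1aN2. Sqle was at 0.41 and 0.25.

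No gene of the 6 lists passed at 5 days, and fatty acid synthesis was the list with the lowest median. For aJ1aJ2 its median was -0.49 beside -0.06 for all genes, with the malic enzyme Me1 at -0.89 (adjusted p = 0.177) and Fasn at -1.34 (adjusted p = 0.183). For aN1aN2 the median was -0.66 beside -0.07, with all 12 values below 0, Fasn at -1.40 (adjusted p = 0.217) and Me1 at -0.88 (adjusted p = 0.230). Without RW replicate 3, edgeR called 4 fatty acid genes and 1 synthesis gene as lower in aJ1aJ2. The share of all genes called in that fit is not given here, so these counts have no background beside them. Both antibody groups share the RW libraries, so their values are not independent. The efflux genes Abcg1 and Abca1 were at 1.07 and 1.14 in aJ1aJ2 (adjusted p = 0.251 and 0.283) and at 0.89 and 0.67 in aN1aN2 (0.394 and 0.688). Other values nearest the threshold in aJ1aJ2 were Sc5d -0.35 and Tm7sf2 -0.31 of synthesis, Insig2 -0.53 and Srebf1 0.36 of SREBP control, Scarb1 1.05 and Lipa 0.52 of uptake, and Nus1 -0.52 and Pggt1b -0.24 of the isoprenoid branches. In aN1aN2 they were Pmvk -0.71 and Mvd -0.56, Insig2 -0.41 and Srebf1 0.23, Lipa 0.41 and Mylip 0.37, and Nus1 -0.49 and Dhdds -0.40.

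In the first 7-day set, Fdft1 and Lss were higher and Srebf2 lower in value in aJ1aJ2 than in RW, and none passed the test. Fdft1 was at 11.9, 22.4, 10.7, 10.4 and 13.4 CPM in aJ1aJ2 and at 8.84, 7.96, 9.06, 8.17 and 11.1 CPM in RW. The groups overlapped only through RW replicate 5. The log2 fold change was 0.60 (SE 0.21, edgeR adjusted p = 0.324) and became 0.35 (adjusted p = 0.294) without aJ1aJ2 replicate 2. That library had the group's highest muscle share and brown adipocyte sum (2615 CPM), and the part of these tissues was not tested. Lss was at 24.9, 16.5, 25.8, 27.3 and 24.4 CPM against 19.4, 20.3, 18.9, 19.3 and 16.1 CPM, where only replicate 2 fell into the RW range (0.34, adjusted p = 0.385, and 0.44, adjusted p = 0.0911, without it). Srebf2 was at 105, 60.0, 99.1, 98.6 and 92.9 CPM against 115, 131, 116, 120 and 88.2 CPM (-0.33, SE 0.16, adjusted p = 0.463), with replicate 2 again the extreme. Sqle was at -0.29 (adjusted p = 0.494), Insig1 at -0.09 and Hmgcs1 at -0.08.

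Of the 6 members tested in that set, 0 were called by edgeR, beside 0% of 16954 genes (1968 had an unadjusted p under 0.05), and 0 by DESeq2, which called 476 genes in all. Fdft1 and Lss were the 2 members with an unadjusted p under 0.05, beside 11.6% of genes. Idi1 and Fdps were not tested, with group means of 0.501 and 0.199 CPM in aJ1aJ2 and 0.366 and 0.188 CPM in RW. In the lists, Srebf1, which encodes the SREBP of fatty acid genes, was at 0.64 (adjusted p = 0.170) with Insig2 at 0.17, and Abca1 was at 0.78 (0.161) with Nr1h3 at 0.64 (0.375). The citrate lyase Acly was at 0.62 (0.214) and the carboxylase Acaca at 0.65 (0.242) in a fatty acid list with a median of 0.32 beside 0.01 for all genes. Lbr was at -0.23 (0.476), Stard4 at -0.35 (0.394) with Soat1 at -0.33, and Pdss2 at 0.36 (0.565) with Ggps1 at -0.09.

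In the second 7-day set, Hmgcs1 and Fdps were lower and Fdft1 higher in aN1aN2aN3 than in aJ1aJ2. Hmgcs1 was at 25.6, 27.9, 20.7, 25.5 and 18.5 CPM in aN1aN2aN3 and at 44.0, 42.7, 35.3, 55.7 and 40.0 CPM in aJ1aJ2. Every aN1aN2aN3 library lay below every aJ1aJ2 library. The means were 23.6 ± 3.88 and 43.5 ± 7.56 CPM (SD, n = 5 each), a log2 fold change of -0.91 (SE 0.17, edgeR adjusted p = 0.00490). Leaving out any 1 library kept Hmgcs1 past the threshold, with log2 fold changes from -0.99 to -0.79. Fdps was at 1.27, 0.416, 0.322, 0.427 and 0.666 CPM against 1.07, 3.01, 1.81, 1.74 and 2.70 CPM, with the groups overlapping through aN1aN2aN3 replicate 1 and aJ1aJ2 replicate 1. Its log2 fold change was -1.75 (SE 0.43, edgeR adjusted p = 0.0157), from -2.20 to -1.57 and past the threshold in 10 of 10 fits that left out a library, though it rests on 93 and 231 counts.

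Fdft1 was at 29.2, 22.3, 30.6, 24.6 and 26.6 CPM in aN1aN2aN3 and at 18.5, 20.4, 17.8, 20.9 and 17.4 CPM in aJ1aJ2. The groups did not overlap. The means were 26.7 ± 3.36 and 19.0 ± 1.57 CPM, a log2 fold change of 0.45 (SE 0.14, edgeR adjusted p = 0.0414), and the call stood in only 3 of 10 fits that left out 1 library (adjusted p 0.0265 to 0.109). Ctsb, the gene on the opposite strand, was at -0.04 (adjusted p = 0.902). Together 3 of 8 members were called, 2 lower and 1 higher, beside 19.6% of 18450 genes (10.4% lower and 9.19% higher). Separation of the groups was seen for 2 of 8 members, beside 15% of genes. DESeq2 also called 3 members, beside 4941 of 22780 genes.

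The 5 members that did not pass in that comparison were Srebf2, Insig1, Sqle, Lss and Idi1. Srebf2 was at 27.3, 33.2, 33.6, 29.6 and 39.9 CPM against 17.6, 20.8, 15.9, 26.0 and 40.7 CPM, with all aN1aN2aN3 values above the aJ1aJ2 mean of 24.2 CPM (0.40, SE 0.24, edgeR adjusted p = 0.254). Without aJ1aJ2 replicate 5, the one high library, its log2 fold change was 0.67 (adjusted p = 0.0204). Insig1 was at -0.31 (adjusted p = 0.246), Sqle at -0.05 (interval -0.48 to 0.38) and Lss at 0.06 (interval -0.30 to 0.42). Idi1 was at 0.261, 0.658, 0.225, 0.274 and 0.148 CPM against 0.684, 0.649, 0.471, 0.369 and 0.701 CPM (-0.90, adjusted p = 0.147). Only aN1aN2aN3 replicate 2 lay within the aJ1aJ2 range, and without it the log2 fold change was -1.35 (adjusted p = 0.0445).

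The same 2 groups differed in tissue make-up, and these values stand beside every call above. Of 7 adipocyte genes 4 fell and the other 3 had values below 0, and their sum was 369 to 1500 CPM (median 959) in aN1aN2aN3 against 3430 to 3748 CPM (median 3525) in aJ1aJ2, with no overlap. The 4 brown adipocyte genes summed to 66.1 to 498 CPM against 662 to 2138 CPM. The 4 C cell genes summed to 20837 to 34840 CPM against 6891 to 17793 CPM, and Tg took 3.73% to 6.5% against 1.15% to 2.82% of counts. Other follicular genes went both ways, with Pax8 at 0.78 and Slc5a5 at -1.91 on the log2 scale (edgeR adjusted p = 0.0222 and 0.0165). With the adipocyte sum as a covariate, Hmgcs1 was at -0.57, Fdps at -0.20 and Fdft1 at 0.28 on the log2 scale, and no gene among 18450 was called (adjusted p = 1.00 for all 3, with 548 genes at an unadjusted p under 0.05). Since the adipocyte sums of the groups do not overlap, adipocyte content and antibody cannot be told apart. With the skeletal muscle sum as a covariate the 3 members remained called (edgeR adjusted p = 0.00244, 0.0123 and 0.0350). In that fit 5057 of 18450 genes were called, against 3614 without the covariate.

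Calls in the synthesis list around the members were few. Of its 15 further genes 3 were called, all lower, a share near that over all genes: the mevalonate kinase Mvk (-0.77, edgeR adjusted p = 0.0212, 5.38 ± 0.831 against 9.01 ± 2.01 CPM), Msmo1 (-0.84, adjusted p = 0.0272) and Dhcr7 (-0.84, adjusted p = 0.0364). The list's median was -0.37 beside -0.07 for all genes, of which 19.6% were called, and that share is the background for each list count here. These calls depended on single libraries: the count was 0 without aN1aN2aN3 replicate 5, and 1 without aN1aN2aN3 replicate 2, 3 or 4 or aJ1aJ2 replicate 2 or 3. For this list and those that follow, the share of all genes called in fits without 1 library is not given. No gene of the 5 in SREBP control was called, with Srebf1 at 0.86 (adjusted p = 0.113) and Scap at 0.43 (adjusted p = 0.310), and 1 was called without aJ1aJ2 replicate 5. In the isoprenoid branches, which lead to coenzyme Q, dolichol and protein prenylation, 3 of 8 fell, Pdss1 (-1.09, adjusted p = 0.00972), Pdss2 (-0.72, 0.0240) and Coq2 (-0.67, 0.0339), all of coenzyme Q synthesis. The farnesyltransferase subunit gene Fntb rose (0.63, adjusted p = 0.0199). Without aN1aN2aN3 replicate 2, 3, 4 or 5 the number called in this list was 2.

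Of 9 uptake and trafficking genes 2 rose and 1 fell, and without aN1aN2aN3 replicate 1 the number called was 5. Scarb1 was among those that rose (0.98, edgeR adjusted p = 0.0142, 56.5 ± 15.4 against 28.1 ± 8.57 CPM), and Stard4 fell (-0.74, adjusted p = 0.0218). Of 7 LXR targets and efflux genes 4 rose: Abcg1 (2.01, adjusted p = 0.00129, 19.4 ± 6.05 against 4.70 ± 0.945 CPM), Abca1 (1.74, adjusted p = 0.00281), Lpcat3 (0.76, adjusted p = 0.00964) and Nr1h2 (0.64, adjusted p = 0.0316). Nr1h3, which encodes the LXR form found in adipose tissue, liver and macrophages, fell (-1.19, adjusted p = 0.0168). The list's median was 0.64. Abca1 and Abcg1 export cholesterol from cells.

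In fatty acid synthesis 9 of 12 genes fell in that set and 0 rose, with a median of -1.36, beside 10.4% of all genes called lower. Pnpla3 was at 3.81 ± 2.29 CPM against 55.5 ± 14.8 CPM (-3.89, edgeR adjusted p = 0.000493), Thrsp at 60.9 ± 32.3 against 619 ± 204 CPM (-3.37, adjusted p = 0.000748) and the desaturase Scd1 at -3.68 (adjusted p = 0.000759). Me1 (-1.44), Acss2 (-1.64) and Elovl6 (-1.28) followed. Adipose tissue expresses these genes strongly. The adipocyte sums given above were lower in the same libraries, so adipocyte content and antibody cannot be told apart here either. The number called was 7 to 10 when 1 library was left out.

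**Figure D5:**
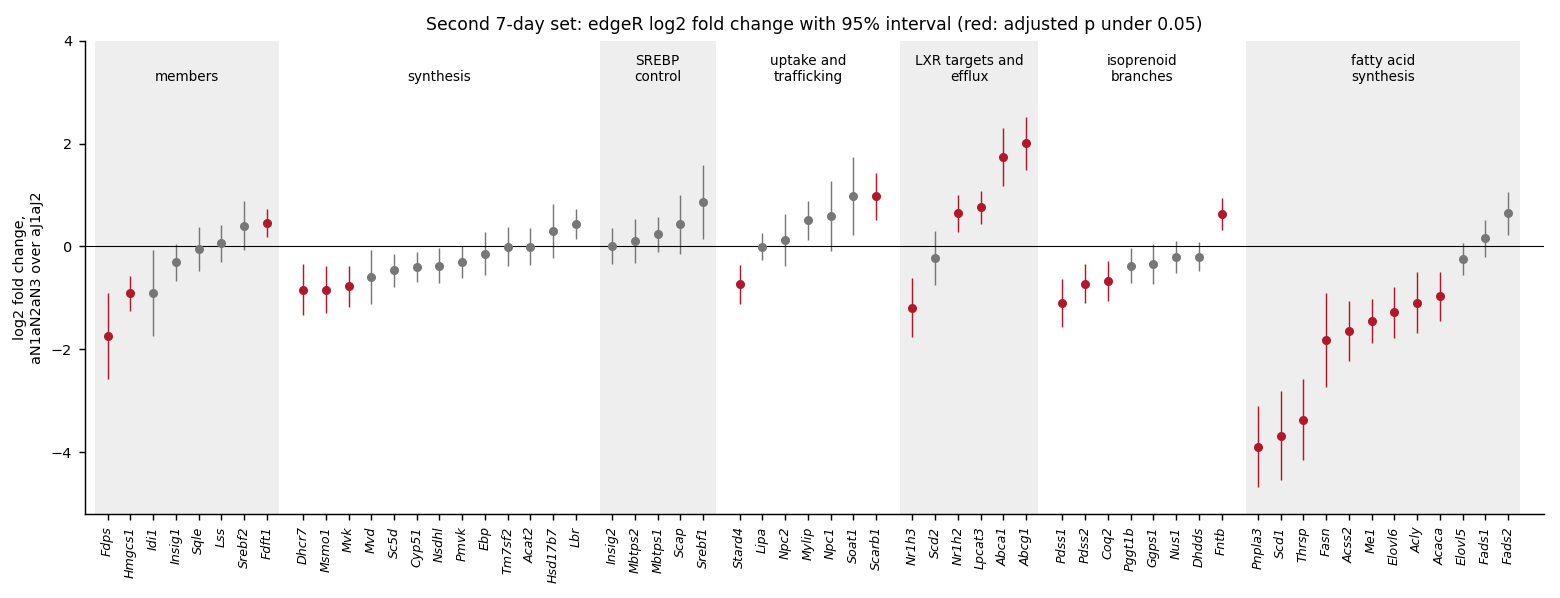
edgeR log2 fold change of aN1aN2aN3 over aJ1aJ2 in the second 7-day set (vertical axis) with its 95% interval for the members and genes of 6 related lists, each in order of value. Red marks an adjusted p under 0.05: 3 members, 3 further synthesis genes, 9 fatty acid genes, and 4 LXR list genes above 0.

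The 2 sets at 7 days also stood apart where they shared the aJ1aJ2 antibodies. Srebf2 averaged 91.1 ± 17.9 CPM in aJ1aJ2 of the first set and 24.2 ± 10.0 CPM in aJ1aJ2 of the second, a ratio of 0.266. Lss averaged 23.8 ± 4.22 and 10.3 ± 2.25 CPM (ratio 0.432), Fdft1 13.7 and 19.0 CPM (1.38) and Fdps 0.199 and 2.07 CPM (10.4). Among the 40 libraries outside the second set only 1, RW replicate 3 at 5 days, lay below the highest second-set value of Srebf2 (40.7 CPM) or of Lss (13.9 CPM). Without the trimmed mean scaling these ratios were 0.356, 0.592, 1.97 and 14.4, so their directions held, whereas Hmgcs1 (0.869 and 1.22) and Insig1 (0.770 and 1.06) changed direction between the scales. Sqle and Idi1 were at 1.05 and 1.15. Tg took 8.87% to 35.7% of counts in aJ1aJ2 of the first set and 1.15% to 2.82% in aJ1aJ2 of the second. The part of tissue make-up was not tested, and no test was made between the sets.

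Direct and time comparisons added no member. Between aN1aN2 and aJ1aJ2 at 15 hours 0 of 8 members were called (beside 0.13% of 18513 genes), 0 by DESeq2, and 2, Srebf2 and Insig1, had an unadjusted p under 0.05, beside 12.5% of genes. The 2 groups lie in different processing blocks, so block and antibody cannot be told apart. Srebf2 was at -0.50 (SE 0.19, edgeR adjusted p = 0.303) with all 5 aN1aN2 values below the aJ1aJ2 mean, and Insig1 at 0.48 (SE 0.19, adjusted p = 0.315). At 5 days 0 of 6 were called (beside 0% of 18434 genes, 778 with an unadjusted p under 0.05, and 74 by DESeq2), with Fdft1 at -0.39 and the other members between -0.26 and 0.08. The change of the aJ1aJ2 effect from 15 hours to 5 days called 0 of 8 members (beside 0.636% of 19337 genes), with Hmgcs1 at -0.78 (adjusted p = 0.654). The same change for aN1aN2 called 0 of 8 (beside 1.8% of 19337 genes), with Hmgcs1 at -1.07 (SE 0.54, adjusted p = 0.356), or -0.79 (adjusted p = 0.0934) without the libraries with neuron genes. From 15 hours to 7 days the aJ1aJ2 effect called 0 of 7 members (beside 0.314% of 18487 genes), with Sqle at -0.91 (adjusted p = 0.482) and Hmgcs1 at -0.86 (adjusted p = 0.492). DESeq2 called 0 members in each of the 3.

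In the lists, only fatty acid synthesis gave calls in these comparisons. Acaca (-1.50, edgeR adjusted p = 0.0318) and Fasn (-2.14, adjusted p = 0.0438) fell in the change of the aN1aN2 effect. The number called ran from 0 to 7 when 1 library was left out, with 7 without RW replicate 3 at 5 days. For those fits the share of all genes called is not given here. At 15 hours this comparison sets aN1aN2 against RW across the 2 processing blocks, so block and antibody cannot be told apart here either. In that comparison the kinase Pmvk was at -1.18 (adjusted p = 0.0663) with Mvd at -1.02 (0.152), and Nus1, of dolichol synthesis, at -0.81 (0.0554) with Pggt1b at -0.34. Scap (0.24) and Insig2 (-0.56), Mylip (0.43) and Lipa (0.27), and Nr1h2 (0.48) and Nr1h3 (-0.46) were further from the threshold. For the aJ1aJ2 effect at 5 days less that at 15 hours, Pmvk was at -0.86 (0.287) with Mvd at -0.84 (0.360), Nus1 at -0.71 (0.148) with Dhdds at -0.52, and Acaca at -0.92 (0.309) with Elovl5 at -0.68. Insig2 (-0.53) and Srebf1 (0.24), Scarb1 (0.84) and Mylip (0.57), and Abca1 (0.86) and Abcg1 (0.55) completed it. At 7 days less 15 hours, Msmo1 was at -0.65 (0.476), Acaca at 0.65 (0.319) with Fasn at 1.03, and Srebf1 at 0.52 with Insig2 at 0.15. Stard4 (-0.97) and Scarb1 (-0.36), Abca1 (0.51) and Lpcat3 (-0.26), and Ggps1 (-0.22) and Pdss2 (0.70) had adjusted p of 0.488 to 0.665.

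For the direct comparisons of the antibodies the nearest list genes were these. At 15 hours Pnpla3 was at 0.75 (edgeR adjusted p = 0.140) with Thrsp at 0.95 (0.195), in a fatty acid list with a median of 0.51 beside 0.00 for all genes, and Fntb at -0.37 (0.219) with Pggt1b at 0.30. Cyp51 (0.36), Scap (-0.23) and Insig2 (0.16), Soat1 (0.38), and Nr1h2 (-0.53) and Abcg1 (0.28) had adjusted p of 0.371 to 0.738. The enzyme Soat1 esterifies cholesterol for storage. At 5 days Scarb1 was at -1.06 (adjusted p = 0.894), and every other gene named by the same rule had an adjusted p of 1.00: Soat1 (0.34), Pmvk (-0.33), Mvk (-0.26), Scap (-0.13), Srebf1 (-0.13), Nr1h2 (-0.23), Abca1 (-0.48), Pggt1b (0.13), Pdss1 (0.26), Pnpla3 (0.16) and Acly (-0.21).

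Within groups Lss and Srebf2 ran against Fdft1 and Hmgcs1. Because the 3 libraries with neuron genes form a cluster of their own, correlations were taken over the other 47 libraries, on log2(CPM + 0.5) with group means removed, with 100000 permutations within groups and adjustment over the 28 pairs. Lss and Srebf2 went together (Pearson's r = 0.84, Spearman's rho = 0.67, permutation p adjusted 0.00084 and 0.00126), with r = 0.77 without the 2 libraries farthest from the median of Lss, and 0.82 (29 libraries) and 0.87 (18 libraries) within the 2 processing blocks. Fdft1 ran against Lss (r = -0.69, rho = -0.61, permutation p adjusted 0.00084 and 0.00126, -0.53 without the 2 farthest, and -0.56 and -0.85 within blocks) and against Srebf2 (r = -0.57, rho = -0.38, permutation p adjusted 0.0129 and 0.0470, -0.34 without the 2 farthest). Hmgcs1 went with Fdft1 (r = 0.55, permutation p adjusted 0.0106) and against Srebf2 (r = -0.48, 0.00971). The rank correlation of Hmgcs1 with Fdft1 was weaker (rho = 0.35, permutation p adjusted 0.0936). Of the 28 pairs 15 were positive, and 9 passed after adjustment by Pearson's r, 5 positive and 4 negative. The share of passing pairs among other genes is not given here, so these counts have no background beside them and are not read as particular to the members. Hmgcs1 and Sqle, both high in the 3 libraries left out, had r = -0.08 (permutation p adjusted 0.745) in the 47.

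The libraries at the ends of these relations include the muscle-rich ones. In RW replicate 3 at 5 days Fdft1 and Hmgcs1 were the highest of the group (16.5 and 79.2 CPM), and Lss and Srebf2 the lowest (6.60 and 30.6 CPM). In aJ1aJ2 replicate 2 of the first 7-day set the same 4 genes were at 22.4, 73.8, 16.5 and 60.0 CPM, again the 2 highest and the 2 lowest values of the group. The part of muscle in the correlations was not tested.

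The genes whose pattern was most like the mean of the members, ranked among 21546 genes over all 50 libraries by Pearson's r on the same scale, were Pacsin1 (0.86), Cacnb3 (0.85), Abat (0.84), Prkar1b (0.84), Faim2, Syt17, Ehd3 and Tbc1d9 (0.83 each). Over the 47 libraries without the neuron cluster the same 8 genes had r between 0.65 and 0.72. Here the group means removed were still those over all 50 libraries, with the neuron cluster in them. These r therefore cannot show whether the likeness holds without that cluster. Prkar1b, for example, stood at 125, 58.6 and 90.7 CPM in aJ1aJ2 replicate 3 and aN1aN2 replicate 2 at 15 hours and aJ1aJ2 replicate 3 at 5 days, and at a median of 6.35 CPM elsewhere. The points share libraries and scaling, and the values are a description of likeness only.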

How the data were processed

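Whole-thyroid RNA was sequenced in 50 libraries (10 groups of 5). The authors deposited whole-number counts per Ensembl gene and, beside them, FPKM values. GSNAP and limma are named, without versions, per the submitters' processing notes, and genome build, annotation, counting rule and strand handling were not given in the sources used. The deposited FPKM follow the whole gene span, introns included (81.6% of 21618 genes within 5% of that relation), so levels between genes are CPM per kilobase of exon instead, and FPKM served only to find processing blocks: 30 libraries (both 7-day sets, RW and aJ1aJ2 at 15 hours) and 20 (aN1aN2 at 15 hours and all at 5 days).

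Symbols matched 52403 of 52636 gene identifiers. Counts were tested with edgeR 4.0.16 in R 4.3.3 (quasi-likelihood, trimmed mean scaling, filterByExpr at a count of 10 and a total of 15, robust), fitting together the groups of 1 time or set, and both times for changes over time, with Benjamini-Hochberg adjustment over all genes tested and a threshold of 0.05. A difference covers the spread between libraries, of which 5 a group limit the precision. Alternatives were DESeq2 1.42.0, its size factors in edgeR, no filter, a replicate block, skeletal muscle and adipocyte covariates, only the 2 groups compared, and each library left out. The sympathetic neuron covariate and the fit without the 3 libraries above 100 CPM were added after seeing the data. The code was tested on simulated counts. The least different pair of libraries within a group still had a chi-square of 17.1 per degree of freedom, so no library was counted as a copy.

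The members and lists were chosen with earlier results of these data known. All members are named in each comparison; of each list, every gene past the threshold (at most 6, by smallest adjusted p) or, where none passed, the 2 with the smallest unadjusted p. A few genes that this rule selects are not reported here. Correlations used Python 3.11.15 and scipy 1.17.1. The second 7-day set has no RW group.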

Additional observations from a re-analysis of the deposited data

Results flagged for a closer look

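Within groups of 5, a value was singled out when its gap to the nearest other value exceeded Dixon's 95% limit. This picked 19 of 80 sets of member and group, and 10 of the 19 were in the 3 libraries with sympathetic neuron genes. The sets share libraries and are not independent. The share picked among all genes is not given here, so this count has no background beside it. In aJ1aJ2 replicate 3 at 15 hours these were Hmgcs1 at 189 CPM, Sqle at 52.1, Fdft1 at 20.8, Lss at 25.1 and Fdps at 0.870. In aJ1aJ2 replicate 3 at 5 days they were Hmgcs1 at 141 CPM, Sqle at 40.8 and Fdft1 at 30.7, and in aN1aN2 replicate 2 at 15 hours Hmgcs1 at 129 CPM and Sqle at 44.3. All 10 were the highest of their group.

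In aJ1aJ2 replicate 2 of the first 7-day set, Hmgcs1 at 73.8 CPM and Fdft1 at 22.4 CPM were high, and Lss at 16.5 CPM and Srebf2 at 60.0 CPM low. This library held 7.76% skeletal muscle counts and 2615 CPM of the brown adipocyte list, whose part was not tested. Fdft1 was also high in the muscle-rich RW replicate 3 at 5 days, at 16.5 CPM. The remaining 4 values were Insig1 at 32.7 CPM in RW replicate 3 at 7 days (lowest), Insig1 at 48.4 CPM in aN1aN2 replicate 1 at 5 days (highest), Idi1 at 0 CPM in RW replicate 5 at 5 days (lowest) and Idi1 at 0.658 CPM in aN1aN2aN3 replicate 2 (highest).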

How the results depend on the processing

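Beside the values in the report, the number of members called was 1 in aN1aN2 against RW at 15 hours without the 3 libraries with neuron genes, and 0 in the second 7-day set with the adipocyte covariate. The call at 15 hours was not seen in any fit that left out only 1 library of the compared groups. Without trimmed mean scaling the summed CPM of the members was 224 in aJ1aJ2 of the first 7-day set (239 with it), 178 in aN1aN2 at 5 days, 191 in aN1aN2aN3 (138 with it) and 194 in aJ1aJ2 of the second set (149 with it).

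The values that changed sign had not passed the test in either fit, and the cause was not tested. For aJ1aJ2 at 15 hours Sqle was at -0.0057 without the neuron libraries. For aN1aN2 at 15 hours the adipocyte covariate gave Idi1 -0.11, Insig1 -0.035 and Fdft1 -0.077, and the neuron covariate Fdft1 -0.043. For aJ1aJ2 at 5 days Hmgcs1 was at -0.013 with the other size factors and with DESeq2, at -0.14 with the replicate block, -0.22 with the muscle, -0.43 with the adipocyte and -0.55 with the neuron covariate, and -0.55 without the neuron libraries. There Sqle was at -0.21 and -0.20, Fdft1 at -0.17 and -0.17, and Lss at 0.074 (muscle) and 0.014 (neuron). For aN1aN2 at 5 days Sqle was at -0.045 (muscle) and -0.054 (adipocyte), Fdft1 at 0.070 with the block and Lss at 0.18 with muscle. In the second 7-day set Sqle was at 0.0018 without the filter and Lss at -0.26 with the adipocyte covariate. Between the antibodies at 5 days Fdft1 was at 0.10 and 0.15 with the neuron covariate and without the neuron libraries.

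Leaving out 1 library gave ranges across 0 for Sqle (-0.017 to 0.81) and Fdps (-0.59 to 0.17) in aJ1aJ2 at 15 hours, for Hmgcs1 (-0.55 to 0.15), Sqle (-0.20 to 0.58), Fdft1 (-0.17 to 0.58) and Lss (-0.29 to 0.068) in aJ1aJ2 at 5 days, for Fdft1 (-0.12 to 0.19) and Lss (-0.33 to 0.037) in aN1aN2 at 5 days, for Sqle (-0.17 to 0.077) and Lss (-0.035 to 0.19) in the second 7-day set, and for Fdft1 (-0.50 to 0.15) between the antibodies at 5 days. The members called in the second 7-day set numbered 2 to 4, and the share of all genes called in those fits is not given here.

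In no comparison did all 5 same-numbered pairs of libraries correlate over 0.1, so the numbers were not taken to pair them: 4 of 5 did in aN1aN2 against RW at 15 hours and aJ1aJ2 against RW at 5 days, and 0 of 5 in the second 7-day set. The libraries that correlated best with their own number were 0 to 2 of 5. With the replicate block the second 7-day set had 2 members called, with Fdft1 at an edgeR adjusted p of 0.127 (0.0691 without the filter), and 2100 genes in all against 3614.

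Counts of all genes called moved by over 1.5 times as follows. In aJ1aJ2 at 15 hours 106 became 312 (DESeq2), 36 (replicate block), 38 (adipocyte) and 48 (only 2 groups), and in aN1aN2 at 15 hours 311 became 935, 186, 57 (adipocyte) and 689 (muscle). In aJ1aJ2 at 5 days 33 became 477 (DESeq2), 1 (block), 8 (adipocyte), 9 (no filter), 1036 (muscle) and 0 (only 2 groups), and in aN1aN2 at 5 days 0 became 463 (DESeq2) and 939 (muscle). In the first 7-day set 0 became 476 (DESeq2), 20 (no filter), 6 (muscle) and 4 (adipocyte), and in the second 3614 became 2100 (block) and 0 (adipocyte). Between the antibodies 24 became 557 (DESeq2), 140 (muscle), 43 (neuron) and 11 (only 2 groups) at 15 hours, and 0 became 74 (DESeq2) and 1 (muscle) at 5 days. For the changes over time 123 became 480 (DESeq2), 27 (no filter), 44 (block), 510 (muscle), 192 (neuron) and 40 (without the neuron libraries) for aJ1aJ2 to 5 days, 58 became 374 (DESeq2), 26 (block), 38 (no filter) and 119 (neuron) for aJ1aJ2 to 7 days, and 348 became 934 (DESeq2) and 1649 (muscle) for aN1aN2. Counts limit Idi1 and Fdps most, at 394 and 610 in all libraries.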
